A study of Mus musculus with 6 samples.

Results

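The CDK inhibitor genes of the mouse are 8 genes, Cdkn1a, Cdkn1b, Cdkn1c, Cdkn2a, Cdkn2b, Cdkn2c, Cdkn2d and Cdkn3, taken by symbol from the 41325 gene rows of each library. The study held 6 RNA-seq libraries of female ICR mice, an outbred stock, aged 10 weeks at purchase, habituated for 7 days and kept on a commercial chow. All 6 came from mice that were injected with 5-fluorouracil (5-FU), a pyrimidine analogue that blocks thymidylate synthesis, at 20 mg/kg/day on 2 days a week for 3 weeks. The 3 elemental diet libraries were from mice that were also given 1.6 kcal in 0.8 mL per day of Elental, an amino acid based liquid formula, by mouth, 2 times a day on 5 days a week. The 3 saline libraries were from mice given the same volume of saline. Mice without 5-FU were not analysed here, so each difference below is elemental diet against saline under 5-FU. The labels give 3 mice per group without tying each library to a mouse, so the spread between libraries may be in part technical.

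CDK inhibitors are small proteins that hold back the cyclin-dependent kinases (CDKs), the enzymes that drive a cell through its division cycle. The CIP/KIP proteins p21 (Cdkn1a), p27 (Cdkn1b) and p57 (Cdkn1c) bind CDKs together with cyclins, and mainly restrain CDK2 with cyclins E and A. The INK4 proteins p16INK4a (Cdkn2a), p15INK4b (Cdkn2b), p18INK4c (Cdkn2c) and p19INK4d (Cdkn2d) bind CDK4 and CDK6 and keep the D cyclins off them. Cdkn3 encodes a phosphatase that removes the activating phosphate from CDKs, and its transcript is known to be made in dividing cells. The Cdkn2a row also covers p19ARF, which stabilises p53, and the gene total does not separate that product from p16INK4a.

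The libraries are labelled salivary gland, and the defining markers of that tissue were absent or low in all 6. Of 12 acinar and duct markers 4 (Smgc, Pip, Bpifa1 and Prb1) had no read in any library, where a count of 0 allows up to 0.0907 to 0.103 CPM (reads per 1e+06 reads). The summed level of the 12 markers was 8.09 to 9.11 CPM with elemental diet and 11.6 to 14.4 CPM with saline. According to the labels' extraction protocol the RNA came from fibroblasts or keratinocyte cells, so the tissue of origin is stated here only as the label gives it. Libraries held 29053287 to 33073125 reads on genes. Reads in introns made up 8.39% to 8.82% of them with elemental diet and 13.7% to 14.4% with saline. The groups also stood apart in whole sets of blood cell markers. In the test described below 38.0% of all genes were higher with elemental diet and 40.2% lower. Erythroid markers were higher with elemental diet for 8 of 8 tested genes, with a summed level of 36806 to 37549 CPM against 2251 to 3498 CPM with saline. Neutrophil markers were higher for 7 of 7, at 210 to 243 CPM with elemental diet against 7.69 to 10.2 CPM with saline. B cell markers were lower for 9 of 9, at 1904 to 2015 CPM with elemental diet against 15304 to 15750 CPM with saline. T cell markers were lower for 7 of 7, at 59.2 to 64.2 CPM with elemental diet against 383 to 466 CPM with saline. The part of these cell markers in the results on CDK inhibitors was not tested, and in bulk RNA fewer cells of a type and less RNA per cell cannot be told apart.

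All 8 CDK inhibitor genes had enough reads to be tested, and 7 of them differed between the groups. With elemental diet Cdkn2c was 13.8-fold higher, Cdkn3 28.9-fold higher and Cdkn2d 1.70-fold higher. Cdkn2a was 2.48-fold lower, Cdkn1b 1.71-fold lower, Cdkn2b 1.64-fold lower and Cdkn1c 1.47-fold lower. Cdkn1a, the most abundant of the 8 per length in saline libraries, did not pass the test. The INK4 family thus held 2 genes that rose and 2 that fell, while no CIP/KIP gene rose with TMM scaling. Calls are from edgeR's quasi-likelihood test with TMM scaling, at a Benjamini-Hochberg adjusted p under 0.05 over all 18303 genes tested. In that fit 38.0% of all genes were higher with elemental diet, 40.2% were lower and 78.1% passed in either direction, so 7 of 8 members is a share near that of all genes. The 3 libraries of a group did not overlap with those of the other in TMM-scaled CPM for any of the 8 members, nor for 81.0% of all genes. The median log2 fold change of the 8 members was -0.25, and that of all genes tested was -0.08. Tested against a fold of 1.5 rather than against none, which 24.2% of all genes passed as higher and 26.6% as lower (50.8% in all), 5 members were past the threshold, Cdkn2c, Cdkn2d and Cdkn3 as higher and Cdkn1b and Cdkn2a as lower.

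**Figure D1:**
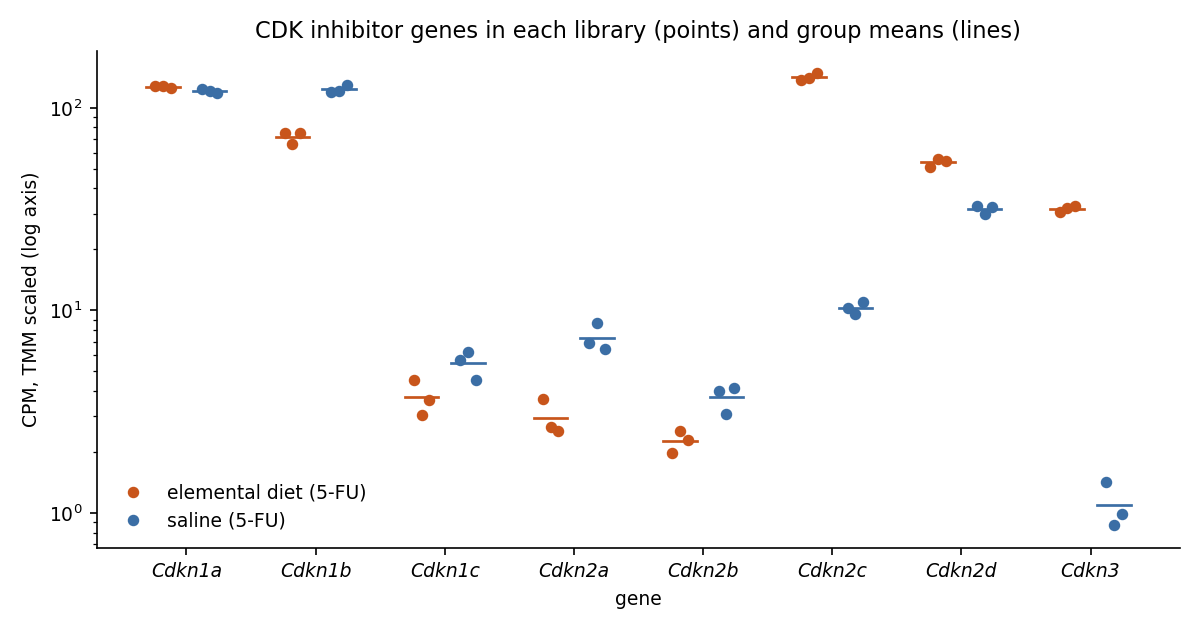
TMM-scaled CPM (log axis) of the 8 CDK inhibitor genes in each of the 3 elemental diet libraries (orange, left of each pair) and the 3 saline libraries (blue), all from mice given 5-FU; lines are group means. Cdkn2c and Cdkn3 stand far above saline, Cdkn1b, Cdkn2a and Cdkn2b stand below it, and Cdkn1a differs little between the groups.

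Among the CIP/KIP genes, Cdkn1a encodes p21, the inhibitor that p53 induces after DNA damage. Cdkn1a (chr17:29090976-29100727, GRCm38) had 128.1, 127.6 and 125.0 CPM in the elemental diet libraries, against 124.3, 120.9 and 118.1 CPM in the saline libraries. The groups were close and did not overlap. Its log2 fold change was 0.07 (SE 0.05, 95% interval -0.03 to 0.17), with an edgeR adjusted p of 0.2. Its sign depended on the scaling of the libraries: it was positive in 4 of 6 scalings and ran from -0.24 (library totals, adjusted p = 0.000267) to 0.11 (RLE, adjusted p = 0.0471). The authors' TPM, which is scaled to each library's own total per length, was 89.3 ± 1.91 with elemental diet and 115 ± 3.21 with saline (SD, n = 3 each). Relative to the median of all genes its log2 fold change lay at 0.15 in each of the 6 scalings. The upper end of the interval is a 1.12-fold change. An antisense gene of unknown coding status lies across part of Cdkn1a, with 52 reads under elemental diet and 62 under saline, beside 10442 and 12175 of Cdkn1a.

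The promoter of Cdkn1a is shown because it carries letters that fit the known binding consensus of p53, whose other target genes are compared further on. In the 250 bases before its first RefSeq start (GRCm38.p6, plus strand) a search of both strands for the p53 half-site consensus found 2 matches, at bases 73 to 64 and 51 to 42 before the start. The window of its second RefSeq start held none. Of the other members with a window, Cdkn2d held 1 match, at bases 102 to 93 before its start. Such a match stood in 7.13% of 32841 mouse promoter windows of that length. The stretch chr17:29090896-29090947 is printed 5′ to 3′ with the matches in capitals.
Cdkn1a promoter stretch: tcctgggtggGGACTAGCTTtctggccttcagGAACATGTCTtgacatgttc

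Cdkn1b encodes p27, which accumulates in resting cells and is destroyed as they enter division. Cdkn1b (chr6:134920401-134925513) had 74.9, 65.9 and 75.4 CPM with elemental diet, against 119.7, 121.5 and 128.9 CPM with saline. Each elemental diet library lay well below the lowest saline library. On the log2 scale it fell by 0.78 (SE 0.06, 95% interval -0.90 to -0.65; edgeR adjusted p = 3.13e-08), and the 6 scalings gave log2 values between -1.08 and -0.73.

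Cdkn1c encodes p57, an imprinted inhibitor that is expressed from the maternal copy. Cdkn1c (chr7:143458339-143461050) was the least abundant CIP/KIP gene, with 123, 90 and 92 reads under elemental diet and 198, 207 and 147 reads under saline. These came to 4.517, 3.06 and 3.59 CPM with elemental diet, against 5.72, 6.21 and 4.521 CPM with saline, so the groups touched without overlapping. It fell by 0.56 on the log2 scale (SE 0.19; edgeR adjusted p = 0.0172). The call was lost when elemental diet library 2 (adjusted p = 0.0874), saline library 1 (0.0554) or saline library 2 (0.086) was left out, and when a fold of 1.5 was the null (0.45). Of its reads 72.1% were unique with elemental diet and 72.5% with saline, against 99.8% or more for the other 7 members, so part of the count may belong to other loci. On unique reads alone the log2 fold change of Cdkn1c was -0.61 (edgeR adjusted p = 0.0121). Of the genes in the imprinted domain around Cdkn1c, 3 of 6 tested were higher and 1 was lower. Their median log2 fold change was 0.36. Over all genes tested 38.0% were higher and 40.2% lower, with a median of -0.08. Tssc4 stood at 51.7 and 20.4 CPM (elemental diet and saline), Phlda2, a growth restrainer of the placenta, at 2.57 and 0.240 CPM, and Cd81, a tetraspanin, at 164 and 237 CPM; under library totals alone 2 of the 6 were higher and 2 lower.

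Among the INK4 genes, Cdkn2c showed the largest change. It encodes p18INK4c, known for its part in the cell cycle exit of maturing plasma cells. Plasma cell markers were lower with elemental diet for 5 of 6 genes, against 40.2% of all genes, and higher for 1. Their part in the change of Cdkn2c was not tested. Cdkn2c (chr4:109660876-109667189) had 136.8, 140.1 and 147.9 CPM with elemental diet, against 10.3, 9.60 and 10.98 CPM with saline. Every elemental diet library stood far above the highest saline library. This was a log2 fold change of 3.78 (SE 0.07, 95% interval 3.64 to 3.92; edgeR adjusted p = 8.78e-15) and stayed between 3.48 and 3.83 under the 6 scalings.

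Cdkn3 moved in the same direction and by more. Cdkn3 (chr14:46760541-46771669) had 829, 939 and 837 reads under elemental diet and 49, 29 and 32 reads under saline. As CPM these were 30.4, 31.9 and 32.7 with elemental diet, against 1.41, 0.870 and 0.984 with saline. In the fit it rose by 4.85 on the log2 scale (SE 0.14, 95% interval 4.55 to 5.16; edgeR adjusted p = 9.02e-13), between 4.54 and 4.90 under the 6 scalings. Its saline level was above the 3 reads that a count of 0 allows, and rests on 110 reads in all.

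The promoters of the 2 genes are shown because they moved together and because genes of the cell cycle are known to carry E2F sites and the pair of a CHR element and CCAAT boxes. RefSeq promoter windows were found for 7 of the 8 members. Both strands of the 250 bases before the start were searched. The E2F core was taken as TTCCCGC, with the forms written as TTGGCGC and, alternatively, as TTCGCGC, and stood in 6.69% of all 32841 windows. The CHR, searched as TTTGAA, stood in 16.0% of them. The CCAAT box stood in 33.9%, and the GC box, searched as GGGCGG, in 32.7%. In the Cdkn3 window (chr14:46760291-46760540, plus strand) capitals mark 1 CHR match, read on the reverse strand, and 3 CCAAT matches. In the Cdkn2c window (first start, chr4:109666757-109667006, minus strand) capitals mark 1 E2F core match, at bases 25 to 19 before the start. The Cdkn3 window also held 1 GC box and the Cdkn2c window 3. GC boxes stood as well in the windows of Cdkn2d (3), Cdkn2a (first start, 2), Cdkn1b (1) and Cdkn1a (second start, 2). A match describes the letters alone and says nothing of a factor bound there.
Cdkn3 promoter: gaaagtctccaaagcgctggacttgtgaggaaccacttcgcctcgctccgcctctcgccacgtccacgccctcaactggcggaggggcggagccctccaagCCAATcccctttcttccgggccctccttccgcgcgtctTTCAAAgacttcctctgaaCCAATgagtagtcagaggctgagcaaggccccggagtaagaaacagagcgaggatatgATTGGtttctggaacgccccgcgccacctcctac
Cdkn2c promoter: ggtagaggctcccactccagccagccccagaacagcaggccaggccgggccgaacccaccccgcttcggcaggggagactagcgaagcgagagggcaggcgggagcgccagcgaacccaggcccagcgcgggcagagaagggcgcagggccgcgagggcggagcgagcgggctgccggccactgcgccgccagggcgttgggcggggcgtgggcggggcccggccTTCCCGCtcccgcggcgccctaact
The window of the second Cdkn2c start held none of these 4 motifs. Cdkn2d, which also rose, held 1 CCAAT match and no E2F core or CHR match. Of the members that were lower with elemental diet, Cdkn2a held 1 E2F core match in its first window and none in its second, Cdkn2b held 1 CHR match and Cdkn1b 2 CCAAT matches.

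Cdkn2d, which encodes p19INK4d, rose by less. Cdkn2d (chr9:21288410-21291407) had 51.2, 56.1 and 54.8 CPM with elemental diet, against 32.8, 30.0 and 32.4 CPM with saline. The groups stood clear of each other. It rose by 0.77 on the log2 scale (SE 0.06; edgeR adjusted p = 5.57e-08), and the change was smallest under library totals, at 0.46.

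Cdkn2a and Cdkn2b lie 11646 bases apart on chromosome 4 and are known to be silenced together by Polycomb proteins. Cdkn2a (chr4:89274471-89294653) had 3.67, 2.65 and 2.54 CPM with elemental diet, against 6.90, 8.67 and 6.43 CPM with saline. Cdkn2b (chr4:89306299-89311039) had 1.98, 2.55 and 2.30 CPM with elemental diet, against 3.98, 3.09 and 4.12 CPM with saline. Both were low in all 6 libraries, from 54 to 289 reads, and both were lower with elemental diet. Cdkn2a fell by 1.31 on the log2 scale (SE 0.19; edgeR adjusted p = 2.44e-05) and Cdkn2b by 0.71 (SE 0.21; edgeR adjusted p = 0.00673). Cdkn2b did not pass against a fold of 1.5 (adjusted p = 0.194). Of their neighbours on the chromosome, Mtap, a methionine salvage enzyme, stood at 37.3 CPM with elemental diet and 32.5 CPM with saline and changed sign between scalings, while Dmrta1, on 6 reads under elemental diet and 205 under saline, stood at 0.0714 CPM with elemental diet and 2.04 CPM with saline.

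**Figure D2:**
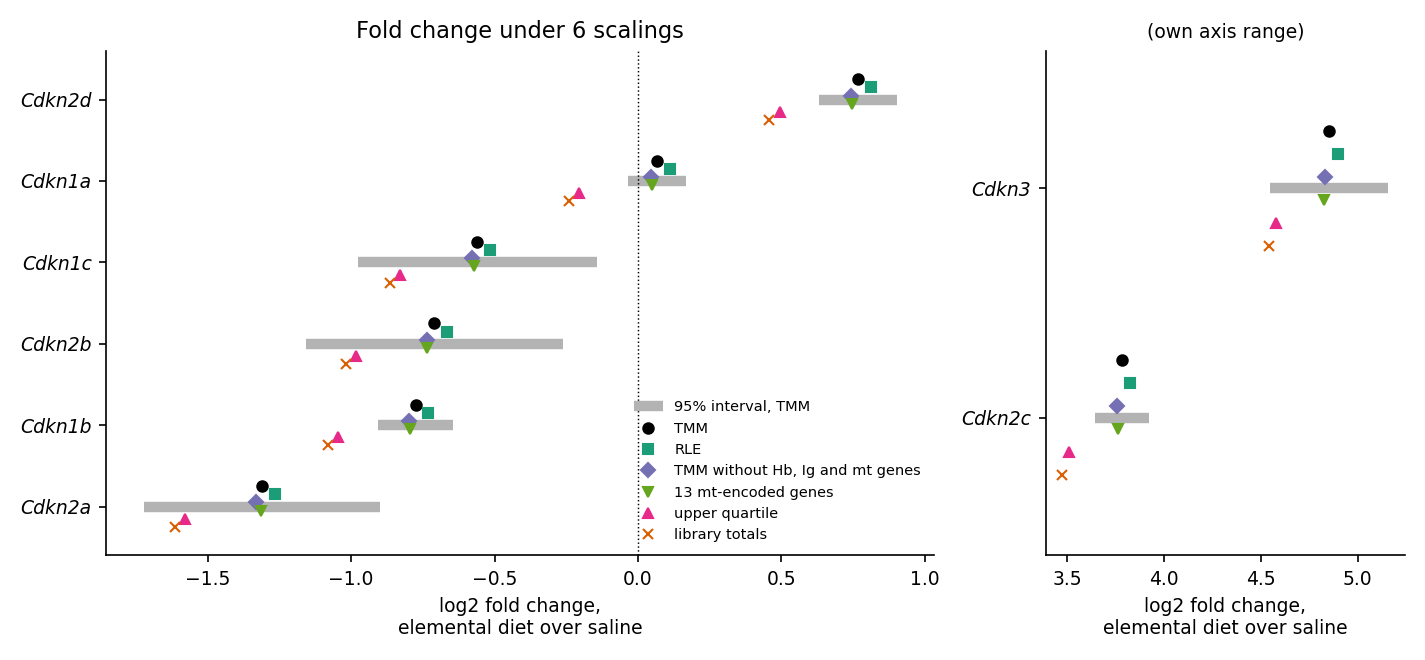
The log2 fold change (elemental diet over saline) of each CDK inhibitor gene under 6 ways of scaling the libraries, with the 95% interval of the TMM fit as a grey bar; Cdkn2c and Cdkn3 have an axis range of their own. The points of Cdkn1a fall on both sides of 0, and those of the other 7 members keep their side.

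Scaling shifted all members by the same step. Over all genes tested the median log2 value was -0.08 with TMM, -0.04 with RLE, -0.35 with the upper quartile and -0.39 with library totals. With library totals 5408 genes were higher and 9262 lower, and with the upper quartile 5601 and 9051, against 6951 and 7352 with TMM. With library totals 29.5% of all genes thus passed as higher, 50.6% as lower and 80.2% in either direction, and all 8 members passed, 3 as higher and 5 as lower. The 7 members other than Cdkn1a passed the test with the same sign in 6 of 6 scalings.

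Levels between genes were compared in the authors' TPM, which is per annotated exon length of the gene. The lengths of the transcripts present were not tested, so the order rests on the annotated lengths. With elemental diet the order was Cdkn2c at 126.9 ± 3.55 TPM, Cdkn1a at 89.3 ± 1.91, Cdkn2d at 88.5 ± 2.89, Cdkn1b at 41.3 ± 3.45, Cdkn3 at 32.8 ± 0.526, Cdkn2a at 5.36 ± 1.24, Cdkn1c at 4.69 ± 1.04 and Cdkn2b at 3.59 ± 0.284 (SD, n = 3). The libraries of Cdkn1a and Cdkn2d overlapped, and so did those of Cdkn2a and Cdkn1c. With saline the order was Cdkn1a at 115 ± 3.21 TPM, Cdkn1b at 94.1 ± 2.79, Cdkn2d at 67.8 ± 3.21, Cdkn2a at 19.1 ± 4.14, Cdkn2c at 12.0 ± 1.38, Cdkn1c at 8.99 ± 1.45, Cdkn2b at 8.50 ± 0.988 and Cdkn3 at 1.25 ± 0.343 (SD, n = 3). Here Cdkn1c and Cdkn2b overlapped. By this measure Cdkn2c was the most abundant member with elemental diet and the fifth with saline, and Cdkn3 was the least abundant with saline.

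Cdkn2c made up most of the summed INK4 TPM with elemental diet and Cdkn2d with saline, while Cdkn1a made up most of the CIP/KIP sum in both groups. Cdkn2c made up 56.6% ± 0.796 of the summed INK4 TPM with elemental diet, against 11.1% ± 1.26 with saline (SD, n = 3 each). The share of Cdkn2d was 39.4% ± 1.07 with elemental diet and 63.1% ± 2.30 with saline, and that of Cdkn2a was 2.39% ± 0.590 and 17.8% ± 4.01. Cdkn2b held 1.60% ± 0.103 with elemental diet and 7.91% ± 0.859 with saline. Within the CIP/KIP family Cdkn1a held 66.1% ± 2.08 with elemental diet and 52.6% ± 1.02 with saline, Cdkn1b 30.5% ± 1.65 and 43.2% ± 1.62, and Cdkn1c 3.45% ± 0.630 and 4.12% ± 0.643. A share within a library does not depend on how libraries are scaled to each other, but it does depend on the annotated exon lengths. The groups did not overlap in any share but that of Cdkn1c. The exact permutation test gave p = 0.2 for Cdkn1c and p = 0.1 for every other share, the smallest that 3 against 3 libraries can give, with 0.111 when adjusted over the 10 sums and shares.

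The summed INK4 level was 224 ± 4.19 TPM with elemental diet and 107 ± 1.24 TPM with saline, and the summed CIP/KIP level was 135 ± 5.22 and 218 ± 1.96 TPM (SD, n = 3 each; exact two-sided permutation p = 0.1 each). All 8 members together came to 393 ± 4.36 TPM with elemental diet and 326 ± 3.40 TPM with saline (exact permutation p = 0.1). The sums, unlike the shares, moved with the scaling. With exon reads per kilobase on the TMM library sizes, an alternative chosen after seeing the data, the log2 difference was 1.48 for INK4 against 1.06 in TPM, -0.27 for CIP/KIP against -0.69, and 0.68 for all 8 against 0.27.

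**Figure D3:**
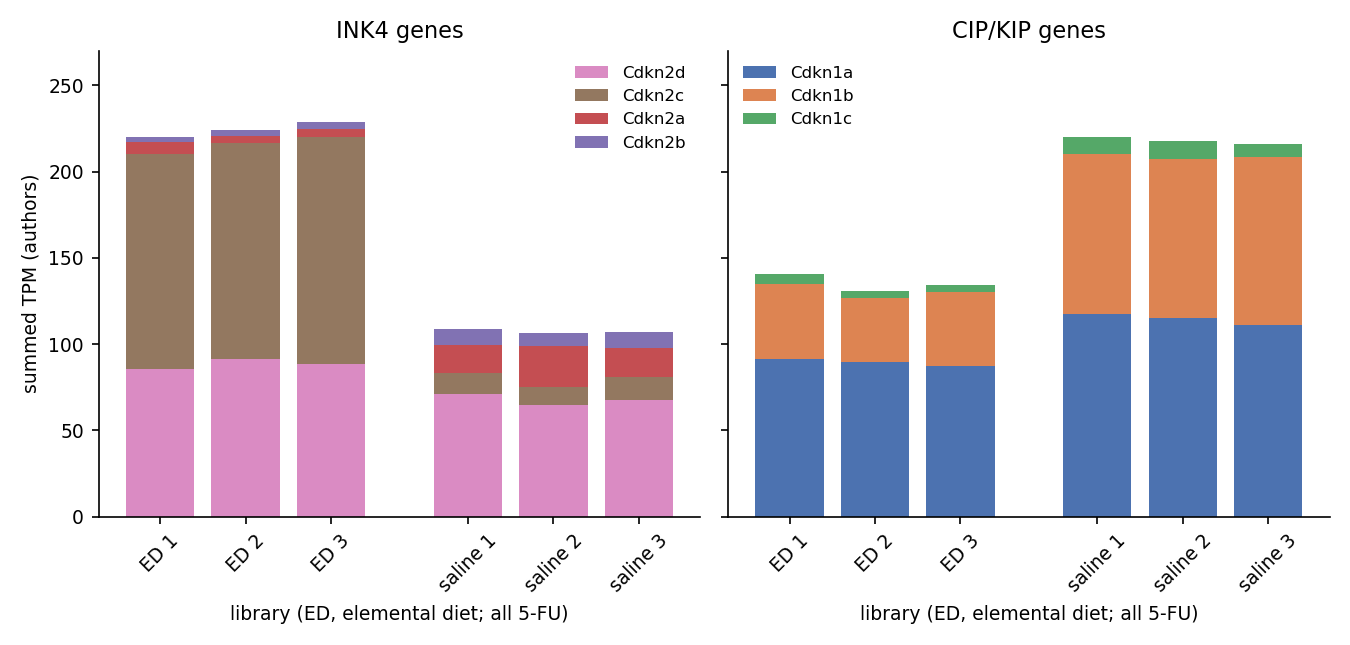
Summed TPM of the INK4 genes (left) and the CIP/KIP genes (right) in each library, with elemental diet libraries left of saline libraries and each gene as a stacked segment. Cdkn2c fills at least 55.7% of each INK4 bar with elemental diet and at most 12.4% with saline, and Cdkn1b is the CIP/KIP segment that differs most between the groups.

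Ratios of 2 genes within a library set each inhibitor against a partner, again without any scaling between libraries. Cdkn1b against Cdk2, its main target, stood at 0.927, 0.743 and 0.773 in TPM with elemental diet, against 4.34, 4.34 and 4.78 with saline. In TPM the inhibitor transcript was thus below that of its kinase in each elemental diet library and above it in each saline library. TPM is per annotated exon length, so which of 2 genes stands higher depends on the lengths used. The fold difference of a ratio between groups does not depend on them. The mean log2 ratio differed by -2.46 (exact permutation p = 0.1). Cdkn2d against Cdk4 was 0.311 ± 0.00653 with elemental diet and 0.627 ± 0.0179 with saline, since Cdk4 rose by more than Cdkn2d did. Cdkn2c against Cdk6 lay the other way, at 4.97 ± 0.269 with elemental diet and 1.45 ± 0.196 with saline. Between inhibitors, Cdkn2c against Cdkn2d was 1.44 ± 0.0568 with elemental diet and 0.176 ± 0.0176 with saline, Cdkn1a against Cdkn1b was 2.17 ± 0.190 and 1.22 ± 0.0677, and Cdkn2b against Cdkn2d was 0.0405 ± 0.00212 and 0.125 ± 0.00986 (SD, n = 3 each). For these 6 pairs the groups did not overlap, with exact p = 0.1 and 0.167 adjusted over 10 pairs.

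The other 4 pairs overlapped. Cdkn3 against Cdk1, a kinase it dephosphorylates, was 0.288 ± 0.00500 with elemental diet and 0.233 ± 0.0557 with saline (exact permutation p = 0.4). The difference of its log2 ratio was 0.25 with TPM + 0.1, 0.08 with reads + 0.5 and -0.26 with TPM + 1, so its direction turned with the pseudocount. In the fit of all genes Cdkn3 rose 28.9-fold and Cdk1 27.8-fold. Cdkn1a against Mdm2, another p53 target, was 2.11 ± 0.0826 with elemental diet and 2.07 ± 0.0797 with saline (exact permutation p = 0.6). The ratio of Cdkn2a to Cdkn2b was 1.52 ± 0.482 with elemental diet and 2.31 ± 0.807 with saline (exact permutation p = 0.3), and that of Cdkn1c to Cdkn1b was 0.113 ± 0.0176 and 0.0958 ± 0.0180 (exact permutation p = 0.6). With 3 libraries a group an overlap does not show that a ratio stayed the same.

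**Figure D4:**
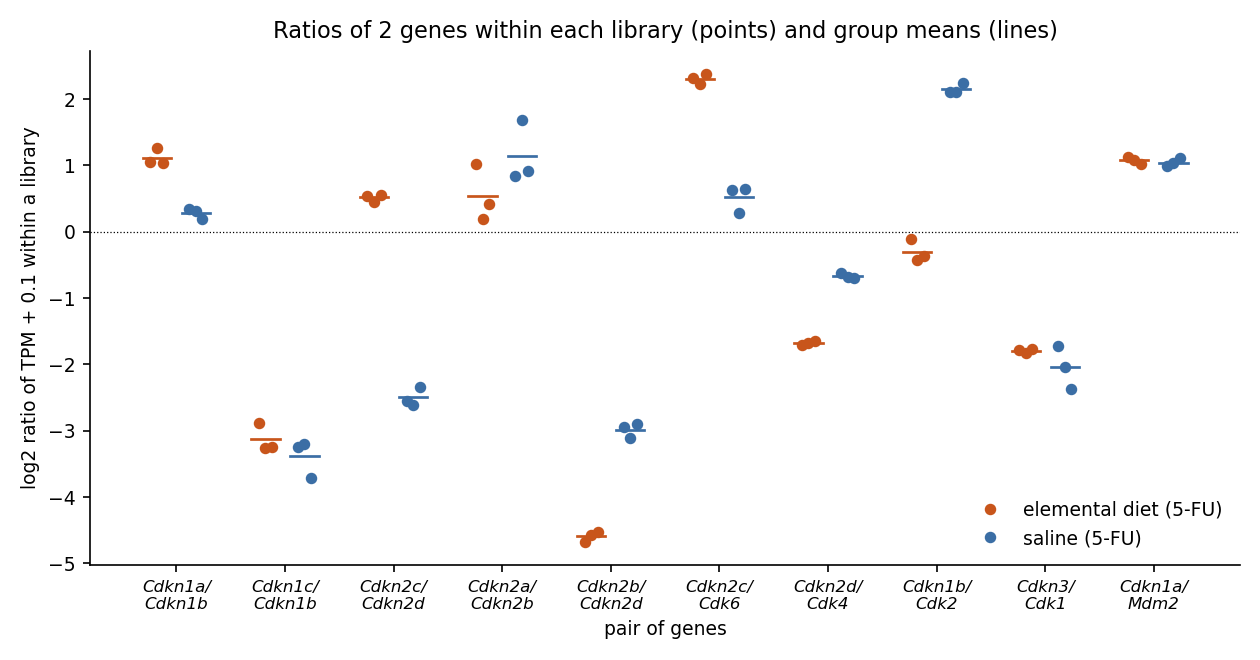
The log2 ratio of 2 genes (TPM + 0.1) within each library for 10 pairs, with elemental diet (orange) left of saline (blue) and group means as lines. Cdkn1b/Cdk2 and Cdkn2c/Cdkn2d change sign between the groups in TPM, where the sign depends on the exon lengths used. The points of Cdkn1a/Mdm2 and Cdkn3/Cdk1 overlap between the groups.

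Reads in introns, which come from RNA not yet spliced or from overlapping genes, gave a second view of each member. Their share was 6.61% ± 0.690 for Cdkn3 with elemental diet and 22.5% ± 8.73 with saline, where only 25 intron reads were counted. For Cdkn2d it was 2.02% ± 0.371 with elemental diet and 4.02% ± 0.807 with saline, and for Cdkn2b 16.6% ± 4.17 and 9.31% ± 3.43 (SD, n = 3 each). The Cdkn2b shares rest on 32 intron reads with elemental diet and 36 with saline. In these 3 genes the groups did not overlap (exact permutation p = 0.1, adjusted 0.267 over 8 genes). The share of all genes without overlap in intron share is not given here, so this count has no background to be read against. In the other 5 they did, with Cdkn2c at 8.54% ± 0.546 with elemental diet and 11.03% ± 5.05 with saline and Cdkn1a at 5.01% ± 0.681 and 4.02% ± 0.765. For all genes together the intron share was lower with elemental diet, and counted on exon reads alone Cdkn1a had a log2 fold change of -0.06 (edgeR adjusted p = 0.223).

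The kinases and cyclins that the inhibitors act on were mostly higher with elemental diet, where 38.0% of all genes tested were higher. Of CDK1, CDK2 and cyclins A, B and E, 7 of 7 tested genes rose, with a median log2 fold change of 4.98, and the same 7 of 7 passed in each of the 6 scalings. Ccna2 stood at 505 CPM with elemental diet and 12.98 CPM with saline, Ccnb1 at 273 and 7.56 CPM, and Ccnb2 at 209 and 6.61 CPM. The targets of the INK4 proteins divided. Cdk6 was at 153 CPM with elemental diet and 39.2 CPM with saline (log2 1.96), Cdk4 was at 354 and 102 CPM (log2 1.80), and Ccnd3 rose as well. Ccnd2 was at 98.0 CPM with elemental diet and 190.0 CPM with saline (log2 -0.95), and Ccnd1 also fell. All 8 genes of the machinery that switches CDKs on or off, which are kinases, phosphatases and the Cdk7 partners Ccnh and Mnat1, rose (7 of 8 under the upper quartile and library totals, where Mnat1 did not pass and, under library totals, changed sign). Among them were Cdc25a at log2 2.62, Cdc25b at 2.41 and Wee1, the kinase that Cdc25 phosphatases oppose, at 2.25. The pocket proteins, which CDKs phosphorylate, gave log2 2.14 for Rbl1, 1.72 for Rb1 and -0.67 for Rbl2, the member linked to resting cells.

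Genes with a part in turnover of the CIP/KIP proteins rose, with 9 of 9 tested higher in each of the 6 scalings. Their median log2 fold change was 1.78, and 38.0% of all genes were higher with TMM scaling. Pcna, the clamp on which p21 is marked for destruction and also among the proliferation markers below, was at 734 CPM with elemental diet and 73.2 CPM with saline. Dtl, the substrate receptor of that ligase, was at 199 and 7.28 CPM, and Cks1b, the cofactor of Skp2 for p27, at 76.5 and 10.4 CPM. These are transcripts, and protein levels of p27 and p21 were not measured here.

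Proliferation markers rose for 16 of 16, with a summed level of 7000 to 8034 CPM with elemental diet and 409 to 435 CPM with saline, and a median log2 fold change of 4.31. Rrm2 gave log2 5.77, Plk1 4.89 and Top2a 4.41. Quiescence and lymphocyte rest genes were lower for 8 of 11 and higher for 2, with a median of -2.50 and a summed level of 689 to 719 CPM with elemental diet and 2002 to 2116 CPM with saline. Btg1 stood at log2 -2.28, S1pr1 at -2.71 and Bach2 at -2.60. Among all genes tested 38.0% were higher and 40.2% lower. The part of the proliferation and quiescence lists in the changes of Cdkn3, Cdkn2c and Cdkn1b was not tested.

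The genes known to control the inhibitors did not move one way. For comparison, 38.0% of all genes tested were higher with elemental diet and 40.2% lower. Of 16 other p53 target genes 4 were higher, 9 were lower and 3 did not pass, with a median log2 fold change of -0.27, and under the 6 scalings 2 to 5 were higher and 8 to 12 lower. Trp53inp1 was at 81.4 CPM with elemental diet and 204 CPM with saline, Sesn1, a stress response gene, at 73.8 and 155 CPM, and Aen, a nuclease of cell death, at 95.4 and 42.2 CPM. Trp53 itself had a log2 fold change of 0.48 and Mdm2 of -0.14, while the checkpoint kinases Chek1 and Chek2 had 4.11 and 2.19 and the p53 inhibitor Mdm4 -0.67. Of 8 Polycomb genes known to act at the locus of Cdkn2a and Cdkn2b, 3 were higher and 4 lower (2 and 5 under library totals). Such counts are near the shares of all genes. Ezh2, the histone methyltransferase, was at 214 CPM with elemental diet and 25.4 CPM with saline, Suz12, its partner, at 277 and 104 CPM, and Cbx7, a reader of its mark, at 24.8 and 91.8 CPM. Of 11 transcription factors known to induce CDK inhibitors 2 were higher and 8 lower, and 1 to 2 were higher and 8 to 10 lower under the 6 scalings. Foxo1 was at 28.3 CPM with elemental diet and 149 CPM with saline, and Ets1 at 140 and 762 CPM. Foxo3 lay the other way, at 234 and 84.1 CPM. The part of these regulators in the changes of the inhibitors was not tested.

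**Figure D5:**
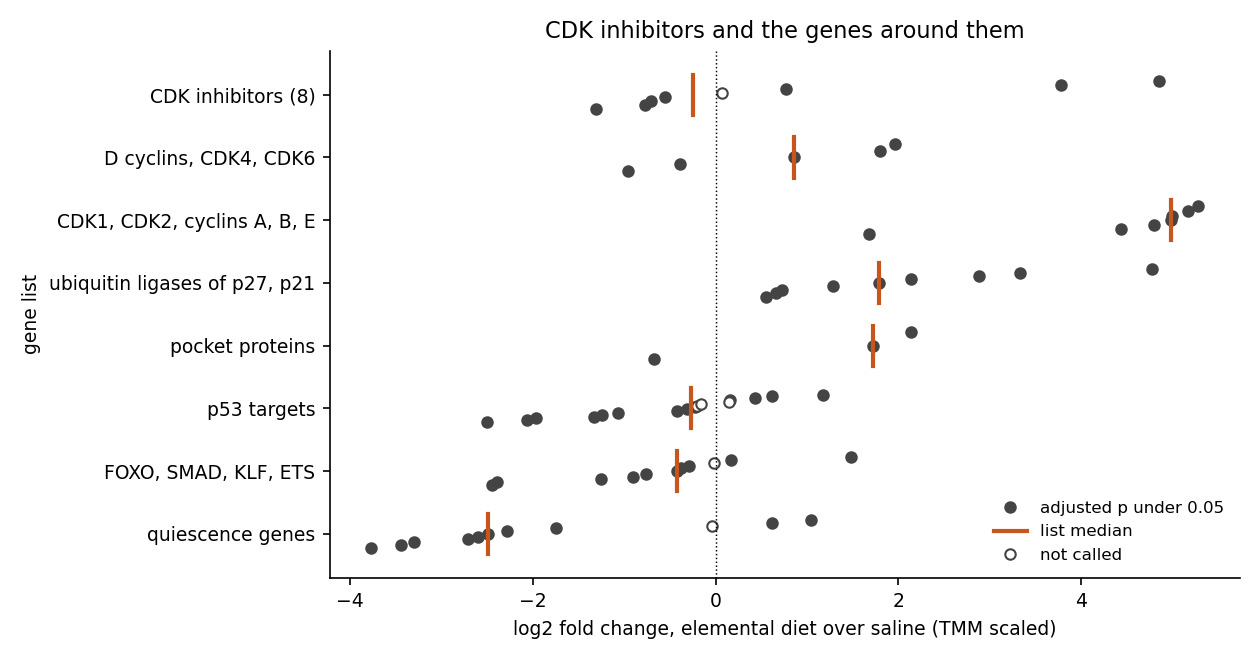
The log2 fold change (elemental diet over saline, TMM scaled) of each tested gene in the CDK inhibitor list and in 7 lists of their targets, regulators and related genes; filled points passed the edgeR test and bars mark list medians. The CDK inhibitors spread over both sides of 0, and the genes of CDK1, CDK2 and cyclins A, B and E all lie to the right.

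The genes most like each member over the 6 libraries were found by the root mean square difference of centred log2(CPM + 0.1) among 14735 genes. Cdkn2c was closest to Kif22, a mitotic kinesin (0.0449), and Mcm7, a subunit of the replicative helicase (0.0523), and Cdkn3 to Nme9 (0.0944) and Snx22 (0.0964). Cdkn1b was closest to Asah1, a lysosomal ceramidase (0.0354), and Xlr4b (0.0371), and Cdkn2d to Cops6, a signalosome subunit (0.0147), and Rdh13 (0.0183). The closest genes to Cdkn1a were Bcl7b (0.0198) and Tns1 (0.0235). The other members were closest to B4galt4 (0.0483) and Adcy1 (0.0555) for Cdkn1c, Apba1 (0.0727) and Gbp2 (0.0835) for Cdkn2a, and Mapk8ip1 (0.0849) and Fosl1 (0.107) for Cdkn2b. With 2 groups of 3 libraries this likeness mainly ranks genes by the size of their group difference.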

How the data were processed

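Polyadenylated RNA was sequenced as paired 75 bp reads, per the labels' protocols. Per the file headers, the authors' deposited tables hold, for 41325 genes, total, unique, exon and intron read counts, TPM and RPKM; RPKM was not analysed further. Builds GRCh37 and GRCm38 are given in the submitters' processing notes; gene coordinates are those of the files. The aligner and counter, not given in the sources used here, may or may not have used strand. Total gene reads were tested with edgeR 4.0.16 in R 4.3.3 (filterByExpr, TMM, robust glmQLFit, glmQLFTest, two-sided) over 18303 genes with Benjamini-Hochberg adjustment at 0.05. SE is the absolute log2 fold change over the square root of F. The test was tried before use on simulated counts with a small set of changed genes. That trial does not cover data in which most genes differ, as here (78.1% called). A 1.5-fold null used glmTreat; single values used exact permutation tests of 3 against 3 libraries (smallest p = 0.1). CPM carries TMM factors, except floors, which use library totals. Ratios are of TPM, their tests of log2(TPM + 0.1). Floors of read counts cover counting error only; 95% intervals are those of the edgeR fit and carry the spread between libraries. No 2 replicates agreed within sampling noise (smallest median chi-square 2.83 times noise).

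The members and gene lists were chosen with earlier results of these data known. All members are named. Other genes are named as among the 3 of a list with the smallest p, as ratio partners or as among the 2 most like a member. Ccnd1, Ccnd3, Trp53, Mnat1 and the antisense gene at Cdkn1a were named after their values were seen. So were Smgc, Pip, Bpifa1 and Prb1, which had no read. Cdk7, Ccnh and Skp2 are named only in describing what genes do. Alternatives were RLE, upper quartile, library totals, TMM without hemoglobin, immunoglobulin and mitochondrial genes, 13 mitochondrial genes as the scale, DESeq2 1.42.0, no filter, unique reads, exon reads, a replicate block and leaving out each library. Skp1 and Ahsp were not matched by symbol, and no promoter window was matched for Cdkn1c. The plasma cell markers gave 1 higher and 5 lower of 6, macrophage 0 and 6 of 6, endothelial 0 and 4 of 5, fibroblast 2 and 1 of 5, and megakaryocyte markers 5 and 0 of 5. Over all genes 38.0% were higher and 40.2% lower.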

Additional observations from a re-analysis of the deposited data

How the results depend on the processing

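Of 17 alternatives tried for each member, Cdkn1b, Cdkn2a, Cdkn2c, Cdkn2d and Cdkn3 kept their sign and their side of the threshold in all 17. The log2 fold change of Cdkn1a passed the test at 0.11 with RLE and at 0.12 with DESeq2 (adjusted p = 0.0337). It was negative at -0.20 with the upper quartile (adjusted p = 0.000767), -0.24 with library totals and -0.062 on exon reads. Among the 6 scalings of the edgeR fit the sign follows where the scaling sets the median of all genes. The DESeq2 value of 0.12 lay near the RLE value of 0.11. Its median of -0.20 is over a larger set of genes and cannot be placed in that order. The cause of the exon and DESeq2 values was not tested. Against a fold of 1.5, 9294 of all genes passed, 4432 higher and 4862 lower, and 2 members were lower, since Cdkn1c (-0.56) and Cdkn2b (-0.71) no longer passed. Leaving out 1 library gave -0.71 to -0.42 for Cdkn1c, which missed the threshold in 3 of 6 cases. The log2 ratio of Cdkn2b to Cdkn2d was -1.43 with TPM + 1 and -1.47 with reads + 0.5, that of Cdkn3 to Cdk1 was -0.26 with TPM + 1, where the pseudocount is near the saline level of Cdkn3, and that of Cdkn1a to Mdm2 was 0.21 with reads + 0.5; the cause was not tested for the other values. The summed levels in TMM-scaled exon reads per kilobase are given in the report (1.48, -0.27 and 0.68). Deviations of same-numbered libraries correlated at 0.117, -0.00799 and 0.0578, and those of differently numbered libraries at -0.104 to 0.0597. No clear pairing by number was seen, though 3 libraries a group cannot exclude one. With a replicate block 14241 genes passed against 14303, and the same 7 members were called. Depth limits Cdkn1c, Cdkn2a, Cdkn2b and the saline level of Cdkn3, each at or under 289 reads in a library.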
